A study of Mus musculus with 8 samples.

Results

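The extracellular signal-regulated kinases (ERK) are MAP kinases at the end of a relay that runs from receptor tyrosine kinases through Ras, Raf and MEK. The ERK feedback genes described here are 10 genes whose transcription ERK activity is known to raise in many cell types: the Sprouty genes Spry1, Spry2 and Spry4, the Sprouty-related genes Spred1 and Spred2, the dual-specificity phosphatase genes Dusp4, Dusp5 and Dusp6, and the ETS factor genes Etv4 and Etv5. They were chosen by name, with earlier results of these data known, as genes whose probe set maps to exactly 1 symbol. All 10 were found among 19938 genes measured. For genes with several such probe sets, which here are Spred2 and Etv5, the one with the highest mean over the 8 arrays was used.

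Affymetrix arrays of the mouse gene 1.0 ST design were used to measure RNA of pancreatic buds. The VEGF pool held fresh e12.5 buds of 3 embryos with Pdx1-tTA and TET-VEGF, in which the Pdx1 promoter drives the transactivator that turns on a VEGF transgene, and the control pool held fresh e12.5 buds of 3 littermates with Pdx1-tTA only. The other pools held wild-type e12.5 buds explanted and kept for 2 days with VEGFR2i, an inhibitor of VEGF receptor 2, or with vehicle, 5 per pool. Each of these 4 pools was hybridized to 2 arrays, so a group is 1 pool without a biological replicate, the arrays show technical error only, and no test of a condition was possible. Buds hold epithelium, mesenchyme, endothelium and blood cells, and in such bulk RNA fewer cells of a type and less RNA per cell cannot be told apart.

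Sprouty proteins dampen signalling between receptor and Raf, Spred proteins bring the Ras inhibitor neurofibromin to the membrane, and the dual-specificity phosphatases remove phosphate from MAP kinases, Dusp6 from ERK in the cytoplasm and Dusp5 from ERK in the nucleus. Etv4 and Etv5 are ETS transcription factors that carry the response to FGF signals rather than dampen it. In the embryonic pancreas FGF from the mesenchyme signals through this relay to the epithelium, and in endothelial cells VEGF receptor 2 feeds the same relay. Transcripts of these genes are often read as a sign of ERK output, although mRNA does not measure the kinase itself.

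Values are log2 expression as normalized by the authors with RMA, and a difference is the mean of 1 pool minus the mean of the other, with the range over the 4 pairs of arrays in brackets. The size rule asked for 2 things: a gap between pool means of 1.5-fold or more, which is 0.58 in log2 units, and no overlap between the arrays of the pools compared. Technical repeats of a pool differed by 1.5-fold in 4 to 25 of all genes measured, and the widest gap of an ERK feedback gene was 0.48, for Spry4 in the pool labelled vehicle. Array medians lay between 4.08 and 4.12 in the fresh buds and between 4.29 and 4.33 in the explants. Epithelial genes were present in every pool, with mean log2 levels over 10 of them of 7.82 in VEGF and 8.41 in control buds, and 9.76 and 9.93 in the pools labelled VEGFR2i and vehicle. The explant pools go against their labels in 1 respect that touches every result on them: the pool labelled VEGFR2i had far more RNA of endothelial genes, which loss of VEGF receptor 2 signalling should lower. The endothelial cadherin gene Cdh5 stood at 8.66 there and at 4.56 in the pool labelled vehicle. No other explant pool was measured, so explant results cannot be given without these pools, and their directions follow the labels as they stand. Whether the labels of the explant pools were exchanged was not tested. An exchange would turn the sign of every difference between the explant pools given here and every count of genes higher or lower between them. Differences of the explant pools from control buds would change places with each other.

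The DNA before the transcription start was read for the members whose levels are given below. RefSeq promoter entries (GRCm38.p6) matched 7 of the 10 genes, and Spry4, Dusp4 and Etv4 had none. Shown are the 250 bases before the start of members with and without a match to the motifs searched. Dusp6 (chr10:99262981-99263230, plus strand) and Spred1 (chr2:117120821-117121070, plus strand) hold CGGAA. Dusp5 (chr19:53528895-53529144, plus strand) holds CGGAA and a pair of CArG boxes. Spry2 (chr14:105896820-105897069, minus strand) has no match to the motifs searched. Capitals mark the matches, and each sequence runs towards its gene.
Dusp6: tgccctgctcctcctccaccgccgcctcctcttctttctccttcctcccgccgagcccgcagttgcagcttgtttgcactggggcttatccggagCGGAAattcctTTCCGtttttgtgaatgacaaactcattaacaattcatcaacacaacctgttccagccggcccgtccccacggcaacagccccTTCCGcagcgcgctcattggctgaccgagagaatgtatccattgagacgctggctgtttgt
Dusp5: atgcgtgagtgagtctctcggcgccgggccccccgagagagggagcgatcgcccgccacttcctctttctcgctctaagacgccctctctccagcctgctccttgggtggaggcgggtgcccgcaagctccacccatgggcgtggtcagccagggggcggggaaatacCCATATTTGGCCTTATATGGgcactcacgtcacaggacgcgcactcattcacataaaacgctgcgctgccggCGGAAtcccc
Spred1: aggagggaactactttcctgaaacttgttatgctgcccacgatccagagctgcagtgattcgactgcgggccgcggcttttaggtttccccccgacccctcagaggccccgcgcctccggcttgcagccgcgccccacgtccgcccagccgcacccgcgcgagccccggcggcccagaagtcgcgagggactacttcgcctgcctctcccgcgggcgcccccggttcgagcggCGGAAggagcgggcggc
Spry2: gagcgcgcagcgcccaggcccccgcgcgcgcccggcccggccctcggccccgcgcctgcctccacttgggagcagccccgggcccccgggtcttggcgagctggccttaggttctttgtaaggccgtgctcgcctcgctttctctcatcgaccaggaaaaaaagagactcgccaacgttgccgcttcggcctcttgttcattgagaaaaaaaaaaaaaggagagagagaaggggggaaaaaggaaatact
The motifs were chosen after the sequences had been read and were searched on both strands. ETS factors, the family of Etv4 and Etv5, bind sites around GGAA, and the form searched was CGGAA, with a leading C. It stood in 4 of 8 member windows (Etv5 has 2 starts), against 25.2% of 32851 RefSeq promoter windows of the same length. The windows were those of Spred1, Spred2, Dusp5 and Dusp6. GGAA without that C was not counted, and it occurs in the Spry2 window shown. The CArG box, bound by serum response factor, stood in the Dusp5 window only, against 1.47% of all windows. Its matches there were CCATATTTGG, at bases 82 to 73 before the start, and CCTTATATGG, directly after it at bases 72 to 63. Neither the AP-1 motif TGANTCA nor the cAMP response element TGACGTCA was found in a member window, against 6.75% and 1.55% of all windows. The member windows held 56.0% to 71.2% G and C, against a median of 52.4% over all windows, and the shares were not adjusted for this. A match describes the letters and does not show that a factor binds there.

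In the fresh buds, every ERK feedback gene was higher in VEGF than in control, by a small amount. The differences ran from 0.19 for Spred1 to 0.55 for Dusp6, or 1.14-fold to 1.46-fold, with a median of 0.31. Both VEGF arrays lay above both control arrays for 10 of 10 genes, a pattern met by 23.7% of all genes. None of the 10 met the size rule, which 0.552% of all genes met as higher in VEGF and 0.933% as lower. The median difference over all genes was 0.00.

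In the explants the levels of all 10 in the pool labelled VEGFR2i exceeded those in the pool labelled vehicle, by more for all but Etv4. The differences ran from 0.48 for Etv4 to 1.61 for Spry4, or 1.40-fold to 3.05-fold, with a median of 0.68 against 0.00 over all genes. The size rule was met by 7 of 10 as higher, Spry1, Spry2, Spry4, Spred1, Dusp5, Dusp6 and Etv5, and by 1.82% of all genes, with 0.371% lower. Dusp4, Spred2 and Etv4 fell short of it at 0.54, 0.53 and 0.48. Arrays did not overlap for 10 of 10, against 25.9% of all genes with both VEGFR2i arrays above both vehicle arrays. All 10 showed that separation in both sets, as did 9.87% of all genes. The genes were picked with these differences in view, so the counts describe them and support nothing further.

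**Figure D1:**
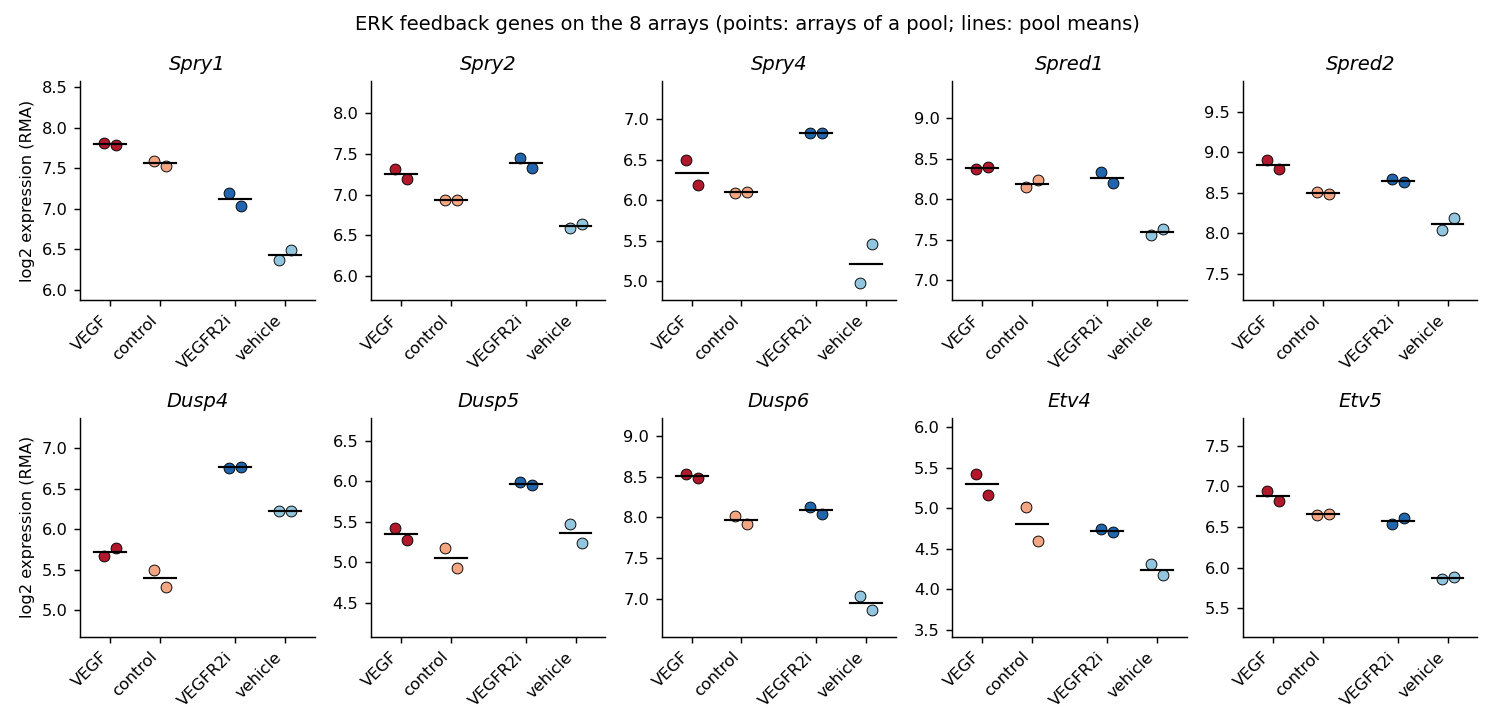
Log2 expression (vertical axis, RMA) of each ERK feedback gene in the VEGF, control, VEGFR2i and vehicle pools, with 1 panel per gene, 1 point per array and a line at each pool mean; every panel spans the same number of log2 units. In all 10 panels both VEGF points lie above both control points and both VEGFR2i points above both vehicle points, and the vehicle pool is the lowest of the 4 pools for 8 genes.

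The Sprouty genes code for inhibitors that act close to the receptor. Spry4 had log2 levels of 6.50 and 6.18 on the VEGF arrays, against 6.09 and 6.10 on the control arrays. In the explants it stood at 6.83 on both arrays labelled VEGFR2i, against 4.98 and 5.46 on those labelled vehicle. The VEGF arrays were thus only just above the control arrays, while the explant pools were far apart. Spry4 differed by 0.25 [0.09, 0.41] in the buds, or 0.09 without VEGF array 1 and 0.40 without VEGF array 2, and by 1.61 [1.36, 1.85] in the explants, where it ranked 38th from the top of all genes. This was the widest range over the 4 pools of any member, 1.61.

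Spry2 is known as a brake on FGF signals in branching organs such as the lung. Its levels were 7.32 and 7.19 in VEGF buds, against 6.94 and 6.94 in control buds, a difference of 0.32 [0.25, 0.38]. On the arrays labelled VEGFR2i it reached 7.46 and 7.33, against 6.59 and 6.64 on those labelled vehicle. This was a difference of 0.78 [0.69, 0.87]. Spry1, known for its part in branching of the ureteric bud, gave 7.81 and 7.79 in VEGF buds, against 7.59 and 7.53 in control buds. It gave 7.19 and 7.04 in the pool labelled VEGFR2i, against 6.37 and 6.50 in the pool labelled vehicle. The Spry1 differences were 0.24 [0.19, 0.28] in the buds and 0.68 [0.54, 0.83] in the explants. In both genes the arrays of compared pools kept apart, and Spry1 differed from Spry2 in that both explant pools lay below both bud pools.

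The Spred genes code for membrane proteins that restrain Ras. Spred1 stood at 8.37 and 8.39 in VEGF buds, against 8.15 and 8.23 in control buds, which gave the smallest bud difference of the members, 0.19 [0.14, 0.25]. Its explant levels were 8.34 and 8.20 with the VEGFR2i label, against 7.56 and 7.64 with the vehicle label, a difference of 0.67 [0.56, 0.78]. The VEGFR2i pool overlapped the control buds for this gene. Spred2 measured 8.90 and 8.80 in VEGF buds, against 8.51 and 8.49 in control buds, a difference of 0.35 [0.29, 0.41]. It measured 8.68 and 8.63 in the pool labelled VEGFR2i, against 8.04 and 8.20 in the one labelled vehicle, with a difference of 0.53 [0.43, 0.63]. A second Spred2 probe set gave a smaller bud difference, 0.08 [0.02, 0.14], and 0.58 [0.50, 0.65] in the explants, so the bud value of Spred2 depended on the probe set.

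Among the phosphatases, Dusp6, which acts on ERK in the cytoplasm, had the largest bud difference of the members. Its levels were 8.54 and 8.49 on VEGF arrays, against 8.02 and 7.92 on control arrays, a difference of 0.55 [0.47, 0.62], and it ranked 132nd from the top of all genes. In the explants it stood at 8.13 and 8.05 with the VEGFR2i label, against 7.03 and 6.87 with the vehicle label, a difference of 1.14 [1.02, 1.27] or 2.21-fold. Dusp6 and Spry4 were the members that also passed 2-fold in the explants.

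Dusp4, a nuclear phosphatase, and Dusp5 were the members whose lowest pool was the control buds and not the pool labelled vehicle. Dusp4 had levels of 5.67 and 5.77 in VEGF buds, against 5.50 and 5.29 in control buds, a difference of 0.32 [0.17, 0.47]. In the explants it had 6.76 and 6.77 with the VEGFR2i label, against 6.22 and 6.22 with the vehicle label. The arrays of each explant pool were almost identical for Dusp4, and the difference was 0.54 [0.54, 0.55]. Dusp5 measured 5.42 and 5.28 in VEGF buds, against 5.18 and 4.93 in control buds, a difference of 0.30 [0.10, 0.49]. It measured 5.99 and 5.95 in the pool labelled VEGFR2i, against 5.48 and 5.24 in the one labelled vehicle, with a difference of 0.61 [0.47, 0.75]. Dusp5 lay just past the size rule in the explants, and with the 8 arrays quantile normalized its difference of 0.58 fell short of it. Its promoter is the one shown above with 2 CArG boxes.

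The ETS factors Etv4 and Etv5 are targets of FGF signalling in branching epithelia. Etv4 had 5.42 and 5.17 in VEGF buds, against 5.02 and 4.59 in control buds, where the gap of 0.42 was the widest of any member. Its bud difference was 0.49 [0.15, 0.83] and depended on single arrays. It was 0.70 without control array 1 and 0.62 without VEGF array 2, both past 1.5-fold, but 0.28 without control array 2 and 0.36 without VEGF array 1. Dusp6 came to 0.59 without control array 1, just past 1.5-fold. In the explants Etv4 stood at 4.74 and 4.70 with the VEGFR2i label, against 4.31 and 4.18 with the vehicle label, a difference of 0.48 [0.39, 0.57]. Etv5 had 6.95 and 6.82 in VEGF buds, against 6.65 and 6.66 in control buds, a difference of 0.23 [0.16, 0.30]. It had 6.54 and 6.61 in the pool labelled VEGFR2i, against 5.86 and 5.88 in the one labelled vehicle, with a difference of 0.70 [0.66, 0.74]. The other Etv5 probe set gave 0.08 [0.02, 0.14] in the buds and 0.71 [0.61, 0.80] in the explants. Only the explant difference was alike in both. The probe set used may not report Etv5 itself: the 20 named probe sets nearest to it in ID order were all of genes on chromosome 10, while 19 of 20 nearest to the other probe set were of genes on chromosome 16, where RefSeq places Etv5. Every Etv5 value other than those of the second probe set carries this doubt.

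**Figure D2:**
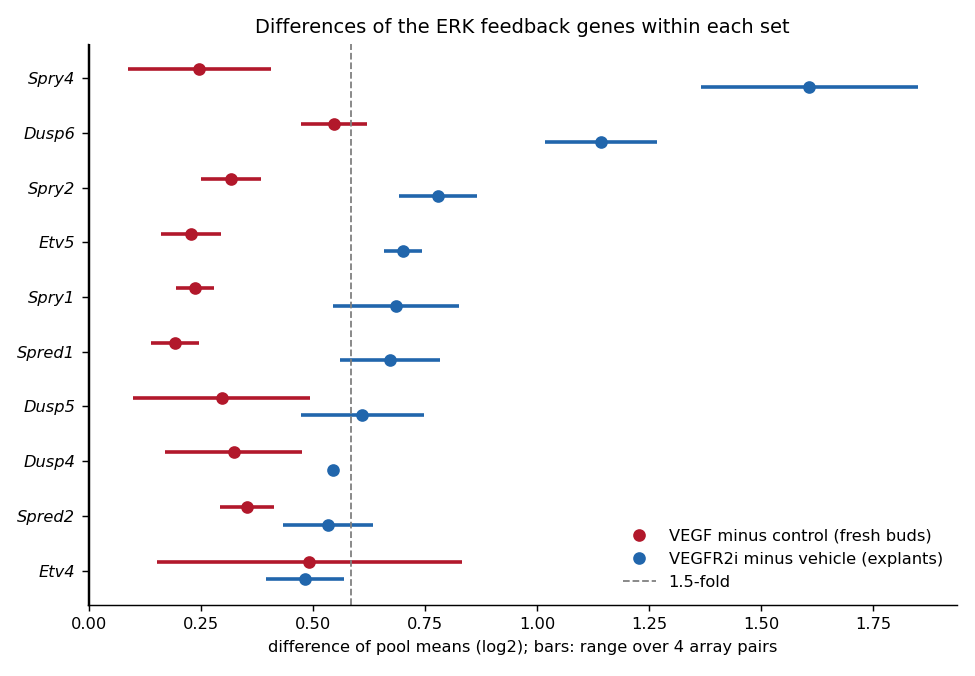
Differences of pool means (horizontal axis, log2) for VEGF minus control and for VEGFR2i minus vehicle, 1 row per ERK feedback gene, with bars for the range over the 4 pairs of arrays and a dashed line at 1.5-fold. All points and bars lie above 0, 7 explant points lie past the dashed line and no bud point does, and Spry4 shows the widest gap between the sets, 0.25 against 1.61.

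Other genes of the relay were read in lists chosen with earlier results known. Of 23 ligands of receptor tyrosine kinases, Pdgfb, which endothelial cells use to recruit pericytes, was the only one past the size rule in the buds, higher in VEGF by 0.86 (6.96 against 6.10). In the explants 3 ligands were higher with the VEGFR2i label and none lower: Vegfc, a lymphatic growth factor, by 1.07, Pdgfb by 0.99 and Kitl, the ligand of Kit, by 0.63. The list medians were 0.05 and -0.01. Of 20 receptors, 3 were higher and 3 lower in VEGF buds. The VEGF receptor genes Flt4 (0.92) and Flt1 (0.90) led the increases, and Ret (-0.84) and Erbb3 (-0.79) led the decreases. In the explants 6 receptors were higher and none lower, led by Flt1 (2.31), Kdr (2.10), the angiopoietin receptor Tek (1.29) and the pericyte receptor Pdgfrb (1.15). Medians of the receptor list were -0.02 in the buds and 0.03 in the explants.

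Few genes of the relay itself met the size rule. None of 18 measured genes of adaptors, Ras and the kinase cascade met the size rule in the buds, and in the explants the adaptor gene Gab2 was the only one, higher by 0.62 (7.17 against 6.55). Medians were 0.00 and 0.08. Of 20 genes of Ras GTPase activators and other negative regulators, none met the rule in the buds and 1 did in the explants, Sh2b3, an adaptor that restrains cytokine signals, higher by 0.70. Their medians were 0.07 and 0.14. Of 7 other MAP kinase phosphatases, none met the rule in the buds and Dusp1, an immediate early phosphatase, was higher by 0.66 in the explants, with medians of 0.02 and -0.01.

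Of 25 other genes known to follow ERK activity, none met the size rule in the buds and 5 were higher with the VEGFR2i label, with none lower. These were Ets1 (1.47), an ETS factor of endothelial cells among others, the immediate early gene Egr2 (1.04), the urokinase receptor gene Plaur (0.99), Elk3 (0.69), an ETS factor that partners serum response factor, and Egr1 (0.67), which fell outside the rule for named genes. The medians of this list were 0.06 and 0.08, below the 0.31 and 0.68 of the feedback genes. Close relatives of the feedback genes, named after their values were seen, were mixed. Spry3 differed by 0.12 in the buds and 0.15 in the explants, Spred3 by 0.08 and 0.31, and Etv1 by -0.08 and -0.01. Spry3 was dim in every pool, at 3.28 to 3.43. Among the phosphatases, Dusp1 differed by 0.39 in the buds and 0.66 in the explants and Dusp2 by 0.31 and 0.50, within the range of the feedback genes. The others were outside it in both sets. Dusp7 differed by 0.02 and 0.35, Dusp8 by 0.01 and -0.15 and Dusp9 by 0.00 and -0.44. Dusp10 differed by -0.38 and -0.17 and Dusp16 by 0.05 and -0.01.

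**Figure D3:**
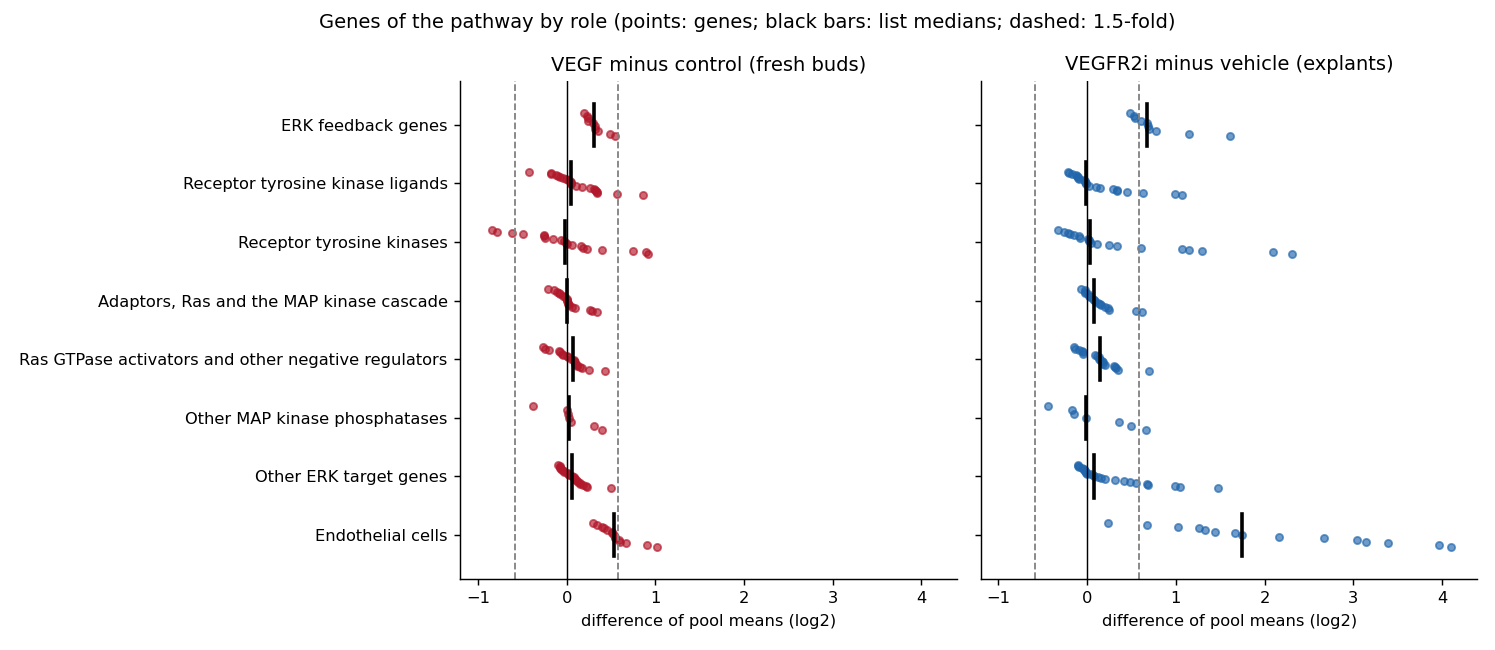
Differences of pool means (horizontal axis, log2) for VEGF minus control (left) and VEGFR2i minus vehicle (right), with 1 point per gene, a black bar at each list's median and dashed lines at 1.5-fold. The medians of the ERK feedback genes, 0.31 and 0.68, lie between those of the other pathway lists, from -0.02 to 0.14, and those of the endothelial genes, 0.54 and 1.75.

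Endothelial genes moved in the same direction as the feedback genes in both sets. Of 15 endothelial markers, 5 were higher in VEGF buds and none lower, with Cd34 at 9.51 against 8.48 and the list's mean level between 7.69 and 7.72 on VEGF arrays, against 7.11 and 7.17 on control arrays. In the explants 14 of 15 were higher in the pool labelled VEGFR2i, and the mean level was 6.55 to 6.56 there, against 4.39 to 4.48 in the pool labelled vehicle. Of 10 leukocyte markers, 9 were higher in the explants, with a mean level of 6.29 to 6.40 with the VEGFR2i label, against 5.32 to 5.40 with the vehicle label. In the buds none of these 10 met the rule, with mean levels of 6.36 to 6.47 in VEGF and 6.32 to 6.35 in control. Of 10 mesenchymal markers, none was higher and Prrx1 was lower (-0.77) in VEGF buds, and Postn was higher (0.75) in the pool labelled VEGFR2i. Epithelial markers went the other way in the buds, with 5 of 10 lower, among them Nkx6-1 (-0.94) and Cpa1 (-0.87), as did 8 of 10 endocrine genes, led by Neurog3 (-2.63), and none of either list met the rule in the explants. The part of these cell types in the differences of the feedback genes was not tested.

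Levels were also compared between the sets, as the pool labelled vehicle over control buds, which differ in culture, in age and in genotype and may have been normalized separately. Here the feedback genes split. Both vehicle arrays lay below both control arrays for 8 of 10 genes, a pattern met by 16% of all genes, and above them for Dusp4 and Dusp5, as for 67.8% of all genes. By the size rule 5 were lower, against 4.08% of all genes, and 1 was higher, against 17.9%. The lower ones were Spry1 (-1.13), Dusp6 (-1.02), Spry4 (-0.88), Etv5 (-0.78) and Spred1 (-0.59), and the higher one was Dusp4 (0.82). The second Etv5 probe set gave -0.16, and with probe sets averaged Etv5 came to -0.47, short of the rule, which left 4 lower.

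This split depended on the explant pool. With the pool labelled VEGFR2i set against control buds, a comparison added after the values were seen, none of the 10 was lower by the size rule, against 2.52% of all genes, and 3 were higher, against 17.7%. These were Dusp4 (1.37), Dusp5 (0.92) and Spry4 (0.73), all as deposited. This count was not repeated under other scalings. Spry2 differed by 0.46, Spred2 by 0.15, Dusp6 by 0.12, Spred1 by 0.08, Etv4 by -0.08, Etv5 by -0.09 and Spry1 by -0.44. The second Etv5 probe set was higher than in control buds here, at 5.82 against 5.27. Arrays overlapped for Spred1 and Etv4. Both VEGFR2i arrays lay above both control arrays for 6 of the 10, against 67% of all genes, and below them for 2, against 14.2%. With the probe sets used, Spry2, Spry4, Spred1, Spred2 and Dusp6 thus had opposite signs in the explant pools. Spry1 and Etv5 were below the control buds in both, without overlap of arrays. Etv4 was below them in both by its mean. The second Spred2 probe set was also below in both, at 7.54 with the VEGFR2i label and 6.97 with the vehicle label, against 7.66. The second Etv5 probe set, by contrast, had opposite signs.

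Values of the pool labelled vehicle against control buds shift with the scaling, since the median over all genes was 0.17 as deposited, -0.04 with each array centred on its median and 0.00 with the 8 arrays quantile normalized. Of all genes past the size rule, 81.5% were higher as deposited, 64.0% after centring and 57.0% after quantile normalization. Centring moved the differences of all genes alike, so the decreases grew in size but not relative to the median gene. With centring 7 feedback genes were lower, against 6.41% of all genes, and Dusp4 stayed higher at 0.61. With quantile normalization 8 were lower, against 7.46%, and Dusp4 fell short of the rule at 0.51. Dusp5 came to 0.09 and 0.02 under these scalings. Over the 4 pools, 8 of the 10 genes had their lowest level in the pool labelled vehicle and Dusp4 and Dusp5 in the control pool, under all 3 scalings. The highest level was in VEGF buds for 6 genes and in the pool labelled VEGFR2i for Spry2, Spry4, Dusp4 and Dusp5, and with either other scaling Spry2 was highest in VEGF buds instead. The second Etv5 probe set was highest in the pool labelled VEGFR2i, at 5.82 against 5.35 in VEGF buds. Of pools next to each other in this order, arrays overlapped between VEGFR2i and control for Spred1 and Etv4 and between vehicle and VEGF for Dusp5. Over the same pools, 15 of 15 endothelial markers were lower in the pool labelled vehicle than in control buds, with a median of -2.68. Of 10 epithelial markers 9 were higher, with a median of 1.44. Of the 25 other genes known to follow ERK activity, 13 were higher and 5 lower as deposited, against 17.9% and 4.08% of all genes. Their median was 0.60, against -0.58 for the feedback genes.

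**Figure D4:**
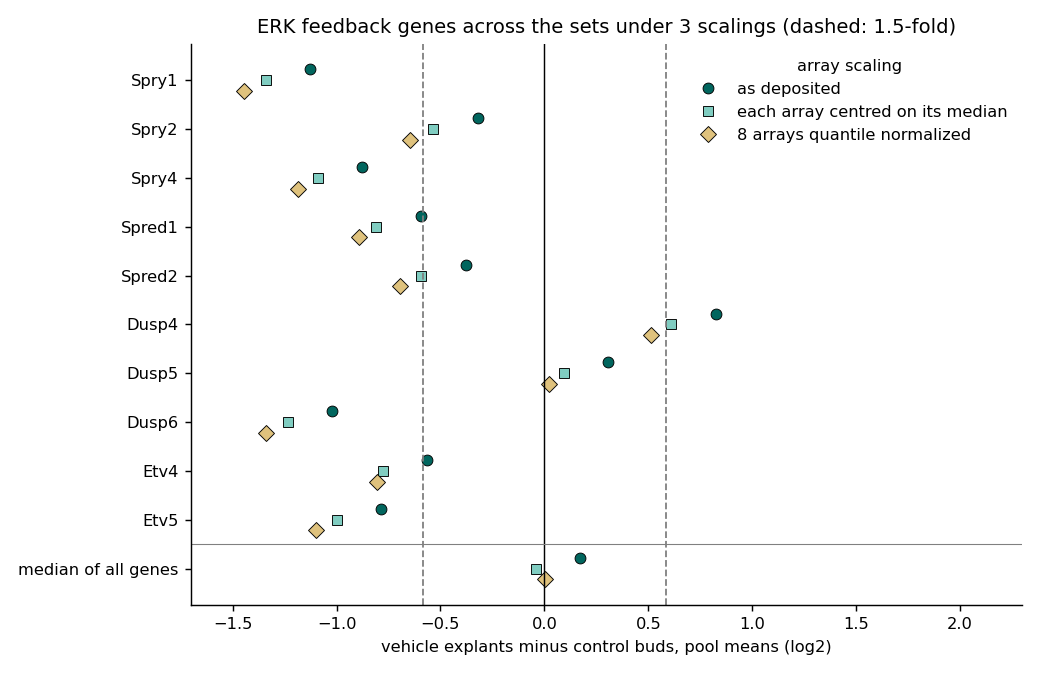
The pool labelled vehicle minus control buds (horizontal axis, log2 difference of pool means) for each ERK feedback gene and for the median of all genes under 3 array scalings, with dashed lines at 1.5-fold. 8 genes lie below 0 under each scaling, Dusp4 lies at 0.82, 0.61 and 0.51, and Dusp5 moves from 0.31 to 0.02.

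The 3 members with the widest range of pool means were Spry4, Dusp4 and Dusp6. Among 1299 other genes with a mean level of at least 6 and a range of at least 1, the profiles most like Spry4 over the 8 arrays were those of S1pr1 (Pearson r 0.96), Adgre5 (0.95) and Cd36 (0.94). S1pr1, a sphingosine-1-phosphate receptor, averaged 6.87 in VEGF and 6.43 in control buds, and 7.08 and 5.08 in the pools labelled VEGFR2i and vehicle. For Dusp6 they were F2r, the thrombin receptor gene, Cd34 and Tmem255a, at 0.995, 0.995 and 0.994. For Dusp4 they were Ccn2 (0.99), Hmox1 and Uap1l1 (both 0.98), whose levels, like those of Dusp4, were higher in both explant pools than in both bud pools. These coefficients describe 4 pools measured 2 times each, with the offset between sets included, and were the highest of many.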

How the data were processed

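Each probe set has a deposited log2 value, normalized by the authors with RMA (Partek Genomic Suite 6.5, according to the design text). The sources used here do not say whether buds and explants were normalized together. RMA sets arrays to a common distribution and compresses differences of dim genes. That the scale is log2 was inferred from the range of 2.41 to 13.6. Groups came from the labels. Of 35399 probe sets, 21789 carried exactly 1 symbol in the platform annotation, and 1 probe set per gene left 19938 genes. Entrez IDs of 21698 of these probe sets matched the RefSeq table (GRCm38.p6), and no symbol differed.

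Pool means and differences were computed with Python 3.11.15, numpy 2.4.6 and pandas 2.3.3. With 1 pool per group and 2 technical arrays each, no p-value for a condition exists, and the number of arrays limits the precision. The members, lists and rules were chosen with earlier results of these data known. Named genes were the 10 members, up to 4 genes per list and comparison with the largest difference past the size rule, and 3 genes with the most similar profile for each of 3 members. Of 187 list entries, 178 were measured, and the other 9 were not analysed here. Alternatives were other probe sets, scalings, folds, a filter on dim genes, leaving out each array, the methods' t-test over arrays and, added after seeing the data, the other explant pool across the sets.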

Additional observations from a re-analysis of the deposited data

How the results depend on the processing

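The bud and explant differences of the 10 genes stayed positive in all 70 values each over 7 settings (averaged probe sets, 2 scalings and each array left out), from 0.09 to 0.70 in the buds and from 0.42 to 1.85 in the explants. Across the sets no difference changed sign under these settings. The number of the 10 past the size rule depended on the fold. With a looser limit of 0.32 in log2 units it was 4 in the buds, 10 in the explants and 8 across the sets. With 2-fold it was 0 in the buds, 2 in the explants and 2 across the sets. Leaving out single arrays gave 0 to 2 in the buds. Over all 19938 genes, 2-fold left 50 genes in the buds, 133 in the explants and 1914 across the sets. The looser limit gave 1030, 1254 and 8120, where 1.5-fold had 296, 437 and 4392. The methods' t-test over arrays, which measures hybridization error only, gave 271 genes in the buds and 405 in the explants at an unadjusted p under 0.05 with 1.5-fold, and 0 and 1 after Benjamini-Hochberg adjustment. No paired analysis was possible because each group is 1 pool and its 2 arrays are technical repeats. With probe sets averaged, Spred2 and Etv5 moved to 0.22 and 0.15 in the buds and to -0.54 and -0.47 across the sets, where Etv5 lost its call and the count was 5. A further alternative, chosen after seeing the data, put the pool labelled VEGFR2i in place of vehicle across the sets. There 3 of the 10 passed the size rule as deposited. With the probe sets used, Spry2, Spry4, Spred1, Spred2 and Dusp6 turned to 0.46, 0.73, 0.078, 0.15 and 0.12. Other scalings were not applied to this comparison. The values of Spred1, Spred2 and Dusp6 are smaller than the gap between the array medians of these pools. With their second probe sets, Spred2 stayed below control buds and Etv5 turned above them.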
